A study of Mus musculus with 6 samples.

Results

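The 8 genes described here code for protein kinases of the testis: the testis-specific serine kinases Tssk1, Tssk2, Tssk3, Tssk4 and Tssk6, the testis-associated kinases Tesk1 and Tesk2, and Haspin, also known as Gsg2. Every probe set annotated to exactly one of these genes was used, with no filter on brightness, which gave 11 of the 45037 probe sets of the array and 8 of the 18193 genes that at least 1 probe set named alone. The array identifier of each of these 11 probe sets was that of the RefSeq gene of the same name.

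RNA of whole testes at postnatal day 21 (P21) was measured in 3 samples of mice homozygous for the Dazap1 Fn allele (Fn) and in 3 wild-type samples (Wt), each hybridised to its own one-colour array. All mice were of a mixed C57BL/6 and 129 background. DAZAP1 is an RNA-binding protein of the hnRNP class, and Fn, a floxed allele that keeps its neo cassette, gives an altered DAZAP1 protein and not a complete loss. Few homozygotes survive the days around birth, so the Fn samples come from survivors, which grow poorly. The sources used here do not give the number of animals behind each sample, so a p-value covers only the spread among these samples.

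TSSK proteins are made mainly in spermatids, the haploid cells that follow meiosis, where they phosphorylate proteins of the forming sperm head and tail, and mice lacking Tssk1 with Tssk2, or lacking Tssk6, are sterile as males. TESK1 and TESK2 phosphorylate cofilin, the protein that severs actin filaments, and so act in parallel with the LIM kinases. Haspin phosphorylates threonine 3 of histone H3 at meiotic and mitotic centromeres, a mark that the chromosomal passenger complex with its Aurora kinase binds through survivin.

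The signals are MAS5 values, a linear intensity per probe set that the authors had scaled to one level on every array. The mean over the middle of an array's values was 498.6 in each Fn array, against 498.4 to 498.5 in the Wt arrays, and the median signal was 90.0 to 105.0 against 86.3 to 89.9. Dazap1 itself had signals of 2538, 2735 and 2820 in Fn, against 4323, 4462 and 5046 in Wt (log2 change -0.77, standard error 0.089, adjusted p = 9.4e-05). The sources used here do not say whether its probe set covers the altered part of the gene. Ddx4, Dazl and Mael, which mark germ cells, were measured in every array, with a summed signal of 27019 to 27298 in Fn and 33545 to 37388 in Wt. Log2 signals were tested with limma over all 45037 probe sets with Benjamini-Hochberg adjustment, and each adjusted p below comes from that fit. A log2 change is the mean log2 signal of Fn minus that of Wt. Its median over all probe sets was 0.32 for the signals as deposited, 0.20 once quantile-normalized and 0.16 with each array centred on its median. At an adjusted p under 0.05, 5805 probe sets were lower and 10762 higher in Fn as deposited, so that 35.0% of the calls were lower, against 6493 and 7414, or 46.7%, with centred arrays. No detection calls were used. The 40th percentile of the mean log2 signals, a signal of 48, served as the level under which a probe set was taken as dim, and a fold against a group with a geometric mean under it is given as "at least", the brighter geometric mean over the dimmer one with each array under the level set to it.

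Of the 11 kinase probe sets, 7 were lower in Fn, where 12.9% of all probe sets were lower, 0 were higher, where 23.9% of all probe sets were higher, and 4 did not pass the test at an adjusted p under 0.05. By gene, each taken by its brightest probe set, 7 of 8 fell, against 19.4% of all genes, and 0 of 8 rose, against 31.6% of all genes. The same 7 probe sets were those in which every Fn signal lay below every Wt signal, which held for 16% of all probe sets. Falls of more than 2-fold between geometric means were read for 7 of the 11, against 12.1% of all probe sets. These were not the same 7: the fall of Tesk2 was smaller, and 1 dim Tssk4 probe set that did not pass the test was among them. The median log2 change of the 11 was -2.35, against 0.32 over all probe sets, and that of the 8 genes -3.60, against 0.29 over all genes. Only 6 of the 11 probe sets reached the level in their mean log2 signal.

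**Figure D1:**
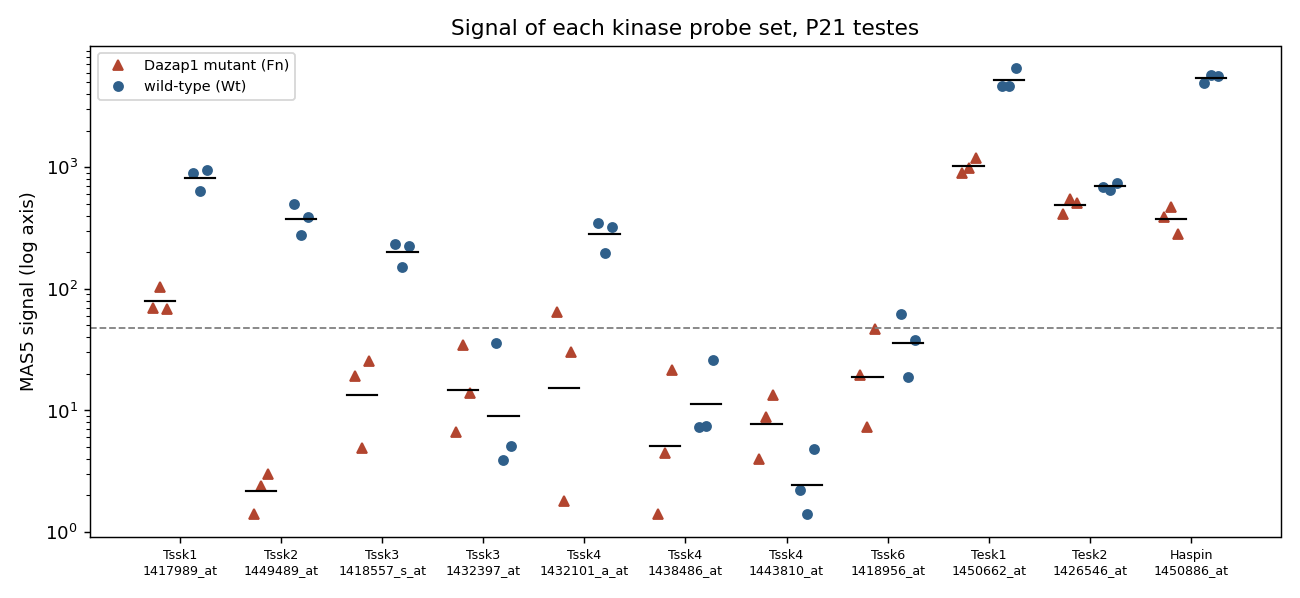
MAS5 signal (log axis) of each kinase probe set in P21 testes, with 3 Fn arrays as triangles left of 3 Wt arrays as circles, bars at the geometric mean of each group and a dashed line at a signal of 48. Haspin and Tesk1 lay above the line on every array with groups far apart, Tssk2 and Tssk3 (1418557_s_at) were under it on every Fn array, and Tssk6 lay near or under it in both genotypes.

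Tssk1 and Tssk2 code for a pair of closely related kinases that bind the testis protein TSKS, and lie 2983 bases apart on the plus strand of chromosome 16 (chr16:17894203-17895653 and chr16:17898637-17900024, GRCm38.p6). Tssk1 (1417989_at) had signals of 70.0, 103.8 and 68.7 in Fn, against 892.9, 632.8 and 943.5 in Wt. The groups were far apart, and all 3 Fn arrays remained above the level. Tssk1 averaged 80.8 ± 19.9 in Fn and 823 ± 167 in Wt (SD, n = 3 each), 10.2-fold lower between geometric means (log2 change -3.35, standard error 0.22, adjusted p = 2.3e-06). Of all probe sets on the array, 1.77% had a lower log2 change.

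Tssk2 (1449489_at) had signals of 1.4, 2.4 and 3.0 in Fn, against 498.6, 275.7 and 390.5 in Wt. All Fn values stood far under the level and all Wt values far above it. The fall was at least 7.86-fold (adjusted p = 3.9e-06). The fitted log2 change of -7.45 (standard error 0.53) rests on Fn signals with no measurable order, and with 16 added to each signal it was -4.43. Tssk2 is among the genes the study picked on these samples for a lower level in the mutant, as are Tesk1 and Haspin, so the direction of these 3 is not independent evidence. For the genes it picked, the paper also reports lower levels by real-time RT-PCR, without showing the data. It found no significant genotype difference in their transcription rate or mRNA export, and among them aberrant splicing in Crem alone. Tssk1 and Tssk2 have similar coding sequences, and whether each probe set reads only its own transcript was not tested.

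The log2 ratio of Tssk1 to Tssk2 within an array was 5.64, 5.43 and 4.52 in Fn, against 0.84, 1.2 and 1.27 in Wt, a difference of 4.09 (exact two-sided permutation test, p = 0.1, the smallest p that 3 against 3 samples allow). With signals under the level set to it, an alternative chosen after seeing the data, the ratio was 0.54, 1.11 and 0.52 in Fn against the same Wt values, and the difference was -0.38 (exact permutation p = 0.2). The direction of this difference therefore rests on Tssk2 signals under the level, and which of the pair fell further was not measurable.

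The sequences before the start sites of this pair are shown because the 2 neighbours fell together and share runs of bases there, in RefSeq promoters of GRCm38.p6 (250 bases before and 50 after the start site, plus strand). The windows are chr16:17894135-17894202 for Tssk1 and chr16:17898559-17898636 for Tssk2, each ending at the base before the start site, with shared runs of 8 or more bases in capitals.
Tssk1: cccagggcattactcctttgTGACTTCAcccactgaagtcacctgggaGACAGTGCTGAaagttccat
Tssk2: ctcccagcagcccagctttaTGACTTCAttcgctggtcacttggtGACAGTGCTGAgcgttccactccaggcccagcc
The word TGACTTCA lay 48 bases upstream of the start site in Tssk1, with a copy on the opposite strand at 35 bases, and 58 bases upstream in Tssk2. It was chosen after these windows were read, and 1.51% of the 27025 promoters of this length, 1 per gene, hold it on either strand. A match to letters is a description and not a binding site.

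Tssk3 is transcribed from the minus strand of chromosome 4 (chr4:129489008-129491730) and codes for a kinase found in spermatids. Its brighter probe set (1418557_s_at) had signals of 19.2, 4.9 and 25.7 in Fn, against 235.3, 151.6 and 226.1 in Wt. Every Fn array was under the level and every Wt array above it. The fall was at least 4.18-fold (log2 change -3.90, standard error 0.59, adjusted p = 5.2e-04), and the log2 change without Fn replicate 2, the lowest, was -3.17. The other probe set (1432397_at) had signals of 6.7, 34.6 and 13.8 in Fn and 36.1, 3.9 and 5.1 in Wt, all under the level (log2 change 0.72, not past the test, adjusted p = 0.64).

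Tssk4, whose product phosphorylates the tail protein ODF2, lies on chromosome 14 (chr14:55643651-55652539). Its brightest probe set (1432101_a_at) had signals of 64.9, 1.8 and 30.0 in Fn, against 350.7, 198.7 and 323.8 in Wt. The groups did not overlap, but the Fn arrays were spread widely and 2 of the 3 were under the level. The fall was at least 5.32-fold (log2 change -4.22, standard error 1.1, adjusted p = 0.0099). Tssk4 had a log2 change of -2.68 without Fn replicate 2 and of -5.27 without Fn replicate 1, and without the intensity trend of the variance it did not pass (adjusted p = 0.075). The other 2 probe sets were under the level on all 6 arrays. Of these, 1438486_at had signals of 1.4, 4.5 and 21.4 in Fn and 7.3, 7.4 and 25.8 in Wt (log2 change -1.12, adjusted p = 0.48). The third, 1443810_at, had 4.0, 8.8 and 13.5 in Fn and 2.2, 1.4 and 4.8 in Wt (log2 change 1.67, adjusted p = 0.20).

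Tssk6, the small serine kinase needed for DNA compaction in the sperm head, was the single gene of the 8 with no probe set past the test. It lies on chromosome 8 (chr8:69902184-69903518), and its probe set (1418956_at) had signals of 19.4, 7.3 and 46.4 in Fn and 62.4, 19.0 and 38.0 in Wt. The groups overlapped, and 3 Fn and 2 Wt arrays were under the level. Its log2 change was -0.93 with an error nearly as large (standard error 0.76, adjusted p = 0.39), and it was -0.25 without Fn replicate 2 and -1.58 without Fn replicate 3, so a difference in Tssk6 was not detectable at these signals.

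Haspin (1450886_at) had signals of 389.8, 472.4 and 284.0 in Fn, against 4896, 5775 and 5580 in Wt. Haspin had the smallest p of the 8 genes, and both groups were well above the level. It averaged 382 ± 94.4 in Fn and 5417 ± 462 in Wt (SD, n = 3 each), 14.4-fold lower (log2 change -3.85, standard error 0.17, adjusted p = 2.1e-07). Of all probe sets, 1.2% had a lower log2 change.

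Tesk1 lies on chromosome 4 (chr4:43442277-43448075, plus strand) and is known for its expression in spermatocytes and round spermatids. Its probe set (1450662_at) had signals of 895.7, 981.9 and 1192 in Fn, against 4628, 4629 and 6513 in Wt. The Fn signals were lower on every array but stayed far above the level. Tesk1 averaged 1023 ± 152 in Fn and 5257 ± 1088 in Wt (SD, n = 3 each), 5.11-fold lower (log2 change -2.35, standard error 0.15, adjusted p = 1.9e-06).

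Tesk2, whose product is reported more from Sertoli cells than from germ cells, lies on the plus strand of the same chromosome (chr4:116720909-116804248). Its probe set (1426546_at) had signals of 413.1, 549.1 and 504.6 in Fn, against 690.0, 652.7 and 748.6 in Wt. The groups came close to each other without overlapping. Tesk2 averaged 489 ± 69.3 in Fn and 697 ± 48.3 in Wt (SD, n = 3 each), 1.43-fold lower (log2 change -0.52, standard error 0.13, adjusted p = 0.011). It did not pass without the intensity trend (adjusted p = 0.06). Of all probe sets, 3.58% had a lower log2 change than Tesk1 and 19.9% a lower one than Tesk2.

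The log2 ratio of Tesk1 to Tesk2 was 1.12, 0.84 and 1.24 in Fn, against 2.75, 2.83 and 3.12 in Wt. The ratio differed by -1.83 and the genotypes did not overlap (exact two-sided permutation p = 0.1, the smallest possible). Of the 2 related pairs tested in this way, neither could pass a threshold of 0.05 in the exact permutation test, and adjustment over the pairs leaves p = 0.1 for each.

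**Figure D2:**
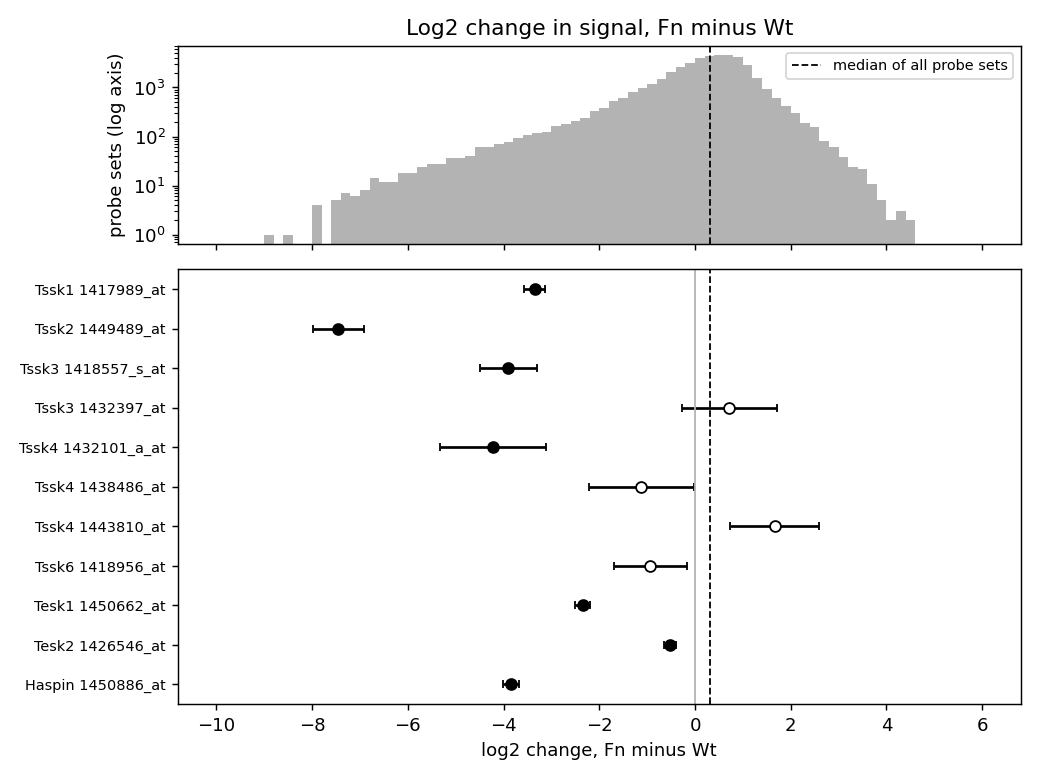
Log2 change (Fn minus Wt) of the signals of all 45037 probe sets as a histogram with a log count axis, and of the 11 kinase probe sets as points with their standard errors, filled where the adjusted p is under 0.05; a dashed line marks the median over all probe sets, 0.32. The 7 filled points run from -0.52 for Tesk2 to -7.45 for Tssk2.

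Promoters of Tesk1 and Tesk2 are shown because the pair differed in the size of its fall and both hold the core of the cAMP response element (CRE), the sequence that CREB and the germ cell regulator CREM bind. The capitals mark the whole CRE, TGACGTCA, in Tesk1 (chr4:43442157-43442276) and the shorter core TGACG in Tesk2 (chr4:116720805-116720904), from RefSeq promoters of GRCm38.p6, plus strand. The core in Tesk2 lies 90 bases before the start site of the promoter table, which is 46 bases inside the gene as its position is given above.
Tesk1: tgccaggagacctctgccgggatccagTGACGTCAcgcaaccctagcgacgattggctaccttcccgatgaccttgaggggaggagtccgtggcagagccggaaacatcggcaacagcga
Tesk2: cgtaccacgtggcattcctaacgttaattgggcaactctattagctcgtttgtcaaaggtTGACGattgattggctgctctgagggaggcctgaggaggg
Of the 8 kinase genes, all with a promoter in the RefSeq table, only Tesk1 held TGACGTCA, 93 bases upstream of the start site, which 1.88% of all 27025 promoters hold. The core TGACG, which is part of TGACGTCA, was in 3 of 8, Tssk6, Tesk1 and Tesk2, against 21% of all promoters. The core CNGTT of the MYB family was in 6 of 8, all but Tssk2 and Tesk2, against 80.4% of all promoters. The start sites of the table lie 960 bases inside Tssk3 and 6533 bases inside Tssk4, so for these 2 genes the window searched is not at the start of the gene given above. Both strands were searched, and no match says only that these letters were not in the window.

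Haspin lies on chromosome 11 (chr11:73135484-73138294, minus strand) wholly inside Itgae (chr11:73090505-73147449), which codes for the integrin alpha chain of lymphocytes in epithelia. Both Itgae probe sets fell in Fn. The first (1447541_s_at) had signals of 190.9, 203.6 and 165.4 in Fn, against 4225, 4382 and 5076 in Wt (log2 change -4.61, standard error 0.12, adjusted p = 4.2e-08). The second (1449216_at) had 136.0, 146.4 and 117.6 in Fn, against 2176, 2101 and 2587 in Wt (log2 change -4.10, standard error 0.13, adjusted p = 9.0e-08). Haspin and its host gene thus fell together, and since the use of strand and the place of each probe set in the locus are unknown here, Haspin and Itgae signals cannot be told apart with certainty.

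Tssk3 overlaps Fam229a, a gene on the opposite strand, by 541 bases at its start (chr4:129491190-129491956). Fam229a (1439533_at) had signals of 23.6, 10.5 and 53.2 in Fn, against 532.8, 333.0 and 396.2 in Wt. It fell at least 8.31-fold (log2 change -4.13, standard error 0.51, adjusted p = 1.4e-04), as did the brighter Tssk3 probe set but not the dim one. The place of each probe set in this locus is also unknown here, so Tssk3 and Fam229a signals cannot be told apart with certainty. Genes that overlap the ends of Tesk1, Tesk2, Tssk4 and Tssk6 did not show such large falls. Toe1, which overlaps Tesk2, fell by one probe set (log2 change -0.34, adjusted p = 0.017) and did not pass by the other (-0.15, adjusted p = 0.30). Ndufa13, which overlaps Tssk6, rose (log2 change 0.38, adjusted p = 0.013), a call lost with centred arrays (adjusted p = 0.14). Cd72 at Tesk1 had a log2 change of 0.46 (adjusted p = 0.28) and Tm9sf1 at Tssk4 one of 0.11 (adjusted p = 0.81). The 12 other genes next to a kinase without overlap had 28 probe sets, so that several genes counted more than once. Of these probe sets 4 fell, 11 rose and 13 did not pass, where 12.9% of all probe sets fell and 23.9% rose. The 4 were those of Ipo4, next to Tssk4 (log2 change -0.72 and -0.86), and of Ccdc163, next to Tesk2 (-0.90 and -0.46).

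**Figure D3:**
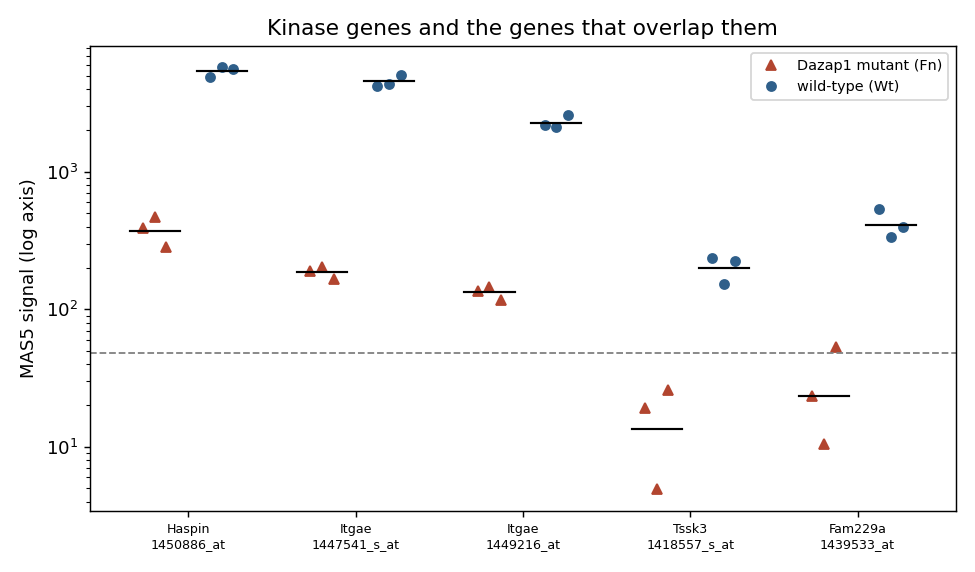
MAS5 signal (log axis) of Haspin and of the brighter Tssk3 probe set beside the genes that overlap them, Itgae and Fam229a, in 3 Fn arrays (triangles, left) and 3 Wt arrays (circles, right), with bars at geometric means and a dashed line at a signal of 48. In all 5 probe sets drawn every Fn signal lay below every Wt signal, while the dim Tssk3 probe set 1432397_at, not drawn, had overlapping groups.

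Likeness of pattern was measured as the root mean square difference between mean-centred log2 signals over the 6 arrays, among 13446 other genes at or above the level, so it follows the difference between genotypes first. Nearest to Haspin were 4930550C14Rik (0.08) and Ttc29 (0.09), while Itgae ranked 197 (0.41). Nearest to Tesk1 were Stk35os1 (0.06) and Flywch1 (0.10), and nearest to Tesk2 were Snx27 and Lims2 (0.06 each). Nearest to Tssk1 were Efcab9 (0.12) and Lrriq4 (0.13). Tsga13 was nearest to Tssk3 (0.23) and also to Tssk4 (0.87), where the larger value shows that no gene closely followed the spread of the Fn arrays. Tssk2 and Tssk6 had a mean under the level and were not ranked. Tssk3 was under the level on all 3 Fn arrays and Tssk4 on 2, so their likeness rests in part on dim signals.

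Of 10 listed relatives and partners of the TSSK kinases, 9 were measured by a probe set of their own (not Hsp90ab1), and 3 fell, 1 rose and 5 did not pass, where 19.4% of all genes fell and 31.6% rose. The median log2 change of the list was -0.21, against 0.29 over all genes. Spag16, a protein of the sperm axoneme that binds TSSK2, had signals of 209.6, 237.2 and 159.6 in Fn, against 2764, 2561 and 3239 in Wt (log2 change -3.83, adjusted p = 1.7e-07). Tsacc, the co-chaperone that links TSSK6 to HSP90, had 1108, 1363 and 1044 in Fn, against 4626, 5788 and 6126 in Wt (log2 change -2.23, adjusted p = 1.1e-06). These 2 partners were far lower on all Fn arrays. Ppp1cc, the phosphatase found with TSSK1 and TSKS, fell by 0.53 on the log2 scale (adjusted p = 2.7e-04). Pdpk1, the kinase that activates TSSK3, was the 1 called higher (log2 change 0.35, adjusted p = 0.0071). Its change was near the middle of the array, where 51.8% of all probe sets had a lower one. With centred arrays Pdpk1 did not pass (adjusted p = 0.18). Tsks, the substrate of TSSK1 and TSSK2, did not pass (log2 change -0.11, standard error 0.31, adjusted p = 0.83). Tssk5 was under the level on every Fn array and had a log2 change of -2.34 (adjusted p = 0.066). With arrays centred on their medians 6 of the 9 fell and 0 rose.

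Of 16 genes of the route from TESK and LIM kinases to cofilin, 14 were measured (not Rock2 or Pak1), and 2 fell, 9 rose and 3 did not pass, where 19.4% of all genes fell and 31.6% rose. The list had a median of 0.70 on the log2 scale, against 0.29 over all genes. With centred arrays 2 of the 14 fell and 7 rose. Dstn, an actin-severing relative of cofilin, had signals of 7752, 7241 and 7697 in Fn, against 3054, 4459 and 2514 in Wt (log2 change 1.22, adjusted p = 3.1e-04). Parva, an adhesion protein that inhibits TESK1, had a log2 change of 1.16 (adjusted p = 1.1e-04), and Ssh1, a cofilin phosphatase, one of 1.07 (adjusted p = 1.2e-04). Ssh2, the related phosphatase known for a role in spermatogenesis, went the other way, with signals of 2406, 2644 and 2361 in Fn, against 5907, 6214 and 6868 in Wt (log2 change -1.36, adjusted p = 2.2e-06). Cfl2, the muscle cofilin, fell by 0.23 (adjusted p = 0.047), a call that was lost on leaving out any 1 of the 6 arrays (adjusted p = 0.058 to 0.14). Limk1 rose (log2 change 0.74, adjusted p = 0.0015), and Limk2 had a log2 change of 0.10 (adjusted p = 0.63).

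Of 17 genes of the Haspin, chromosomal passenger and H3 threonine 3 route, 16 were measured (not Ccnb1), and 7 fell, 4 rose and 5 did not pass, where 19.4% of all genes fell and 31.6% rose. The median log2 change of the list was -0.21, against 0.29 over all genes. The Aurora kinases divided. Aurkc, the germ cell form that works in the passenger complex in meiosis, had signals of 220.2, 280.6 and 237.1 in Fn, against 1103, 1140 and 1136 in Wt (log2 change -2.20, adjusted p = 8.5e-07). Aurka, the spindle pole kinase, had 1641, 1899 and 1648 in Fn, against 5617, 5801 and 6549 in Wt (log2 change -1.79, adjusted p = 6.2e-07). Aurkb, the mitotic form of the passenger kinase, had 366.7, 341.8 and 410.3 in Fn and 469.2, 307.6 and 452.2 in Wt, and these groups overlapped (log2 change -0.11, adjusted p = 0.67, not past the test). Plk1, which phosphorylates Haspin at mitotic entry, fell by 1.37 (adjusted p = 3.5e-05) and Birc5, which codes for survivin, fell by 1.06 (adjusted p = 4.5e-05). Cdca8 and Incenp, the other subunits of the complex, fell by 0.57 and 0.44 (adjusted p = 0.0013 and 0.0017). Sgo1, the protector of centromeric cohesin, and Pds5b, the cohesin regulator that recruits Haspin, rose against these (log2 change 0.87 and 0.71, adjusted p = 0.002 and 7.5e-04). Bub1 (0.32, adjusted p = 0.01) and Pds5a (0.38, adjusted p = 0.048) were also called higher. Their changes were near the middle of the array, with 50.1% and 53.0% of all probe sets lower. With arrays centred on their medians, or without Fn replicate 1, the rises of Sgo1 and Pds5b passed and those of Bub1 (adjusted p = 0.29 and 0.057) and Pds5a (adjusted p = 0.23 and 0.14) did not.

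**Figure D4:**
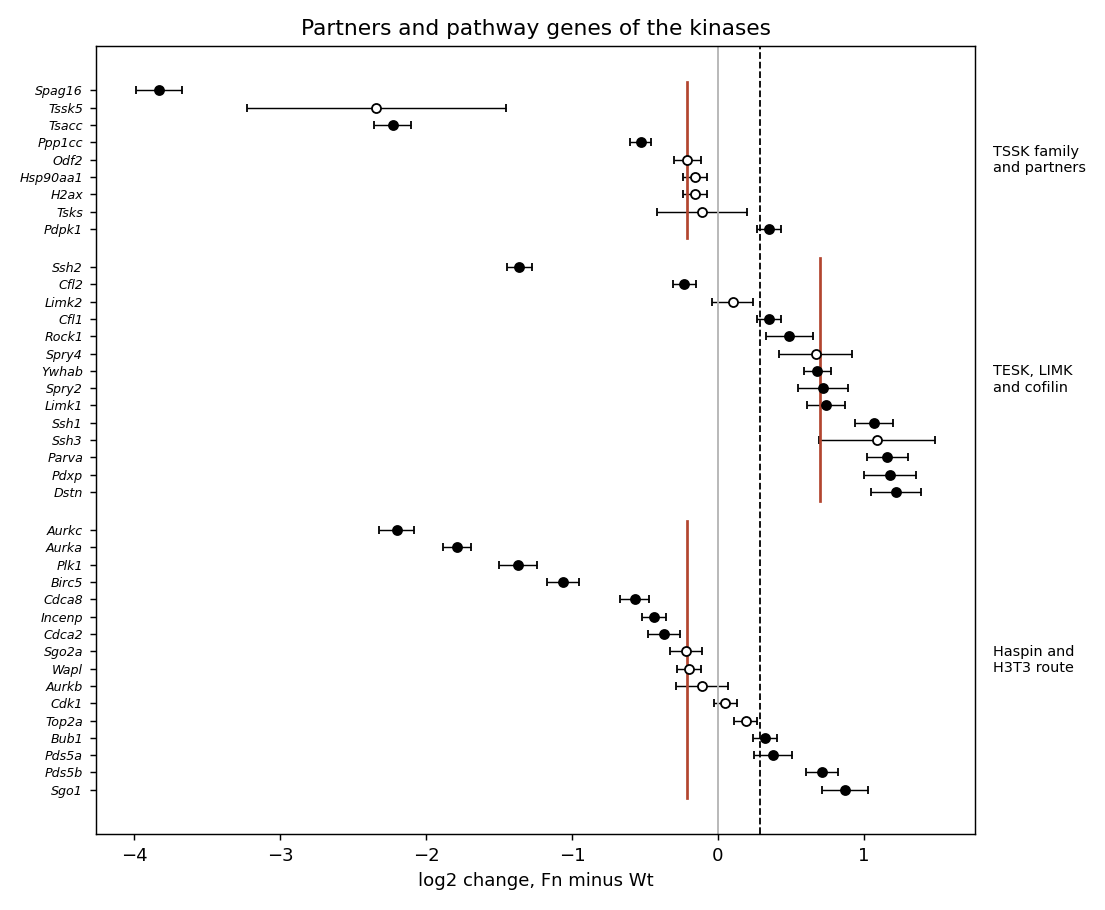
Log2 change (Fn minus Wt) with standard error of the measured partner and pathway genes of the kinases in 3 lists, filled where the adjusted p is under 0.05; red bars are list medians (-0.21, 0.70 and -0.21) with a dashed line at the median over all genes, 0.29. The TESK and LIMK list lies mostly right of 0, while Spag16, Tsacc, Aurkc and Aurka lie at the far left of their lists.

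In whole testis, fewer cells of a type and less RNA per cell cannot be told apart. Markers of several cell types also differed between the genotypes, some lists lower in Fn and others higher. The paper describes P21 testes of both genotypes as holding mainly pachytene spermatocytes, with few or no haploid spermatids. It raises the concern that these spermatocytes might be less advanced in P21 Fn than in P21 Wt, as the mutants grow poorly. Such a delay was not tested here. In the fit as reported 19.4% of all genes fell and 31.6% rose, the shares that each marker count stands beside. All 10 markers of pachytene spermatocytes fell, with a summed signal of 17871 to 24868 in Fn, against 84888 to 93649 in Wt. Of these, Ccna1, Piwil1, Spata16 and Nlrp14 are among the genes that the study picked on these samples for a lower level in the mutant, so their direction is not independent evidence. Of 12 spermatid markers 9 fell and 0 rose, with a summed signal of 2082 to 2487 in Fn, against 18838 to 23070 in Wt. Tnp2, Prm2, Smcp and Odf1 were under the level on every Fn array. In Wt, Tnp2 was also under it on 2 of 3 arrays and Prm2 on 1. Tnp1, Prm1 and Prm2 did not pass the test (adjusted p = 0.15, 0.095 and 0.08). The summed signal leans on the brightest spermatid marker, Dkkl1, with 8819, 9728 and 11132 in Wt. Sertoli cell markers rose in 9 of 10 cases (summed signal 43142 to 44319 in Fn, against 26427 to 30447 in Wt), markers of peritubular and stromal cells in 6 of 6 (27774 to 28427 against 13379 to 16887) and those of spermatogonia in 8 of 9 (14130 to 16752 against 7622 to 8989). Of 10 genes of early meiotic prophase, 3 fell and 3 rose. The Leydig cell list had 2 rises in 4 markers measured, the macrophage list 3 in 5, and the epididymis list 1 fall in 4. With centred arrays 0 of the Leydig cell and macrophage markers rose, against 8 of the Sertoli cell, 6 of the peritubular and 7 of the spermatogonial ones. The part of these shifts in the kinase falls, and in the rises of the cofilin list, was not tested.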

How the data were processed

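Total RNA of P21 testes was hybridised to Affymetrix Mouse Genome 430 2.0 arrays, 3 Fn and 3 Wt. The values deposited by the authors are MAS5 signals, 1 linear intensity for each probe set, and the submitters' notes name MAS5 without a version; the paper used GeneSpring with a fold threshold and names no test for this array. The 1 signal of 0 was set to 0.1 before the logarithm. Probe sets took their gene from the platform annotation, and gene positions came from RefSeq on GRCm38.p6. Log2 intensities were fitted in R 4.3.3 with limma 3.58.1 (lmFit, eBayes with an intensity trend) over all 45037 probe sets, without a filter because the kinases were taken without one, and p-values were adjusted by Benjamini-Hochberg. The limma fit was tested on simulated data, with changes placed only in probe sets at or above the level and so not in dim ones. Named genes were all 8 kinases with every probe set, up to 4 genes of each list with the smallest p and those that moved against the rest, overlapping or adjacent genes, and the 2 nearest patterns. Of the genes next to a kinase without overlap, those that fell are named and the rest counted; Tsks, Tssk5, Limk1, Limk2, Aurkb, Cdca8 and Incenp were added after their values were seen. Members and lists were chosen with earlier results of these data known.

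In the labels each genotype has samples 1 to 3. Deviations of same-numbered Fn and Wt arrays from their group means correlated at 0.131, 0.123 and 0.159 over the 27022 probe sets at or above the level. Those of other pairs correlated at -0.15 to 0.0351. By these small values, which were not tested, same-numbered samples may go together. The labels do not state a pairing, and the paper mentions 3 independent experiments, each on its own RNA preparation. The reported fit and ratio tests have no block and so leave out any such pairing, and the block is an alternative. Replicates were not copies: Spearman correlations were 0.953 to 0.961 within Fn, 0.951 to 0.957 within Wt and 0.897 to 0.914 between them. The number of arrays limits the precision. Alternatives covered scaling, a filter, a pseudocount, the variance prior, array weights, the replicate block, the mean of a gene's probe sets and leaving out each array. Detection calls were not used.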

Additional observations from a re-analysis of the deposited data

How the results depend on the processing

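Over 13 alternatives the count of kinase probe sets lower in Fn was 7, except 6 with the filter, which leaves out Tssk2, and 5 without the intensity trend, where Tssk4 (log2 change -4.22, adjusted p = 0.075) and Tesk2 (-0.52, adjusted p = 0.06) did not pass. In none of them was a kinase probe set higher, and in the fit as reported 0 were higher at an unadjusted p under 0.05 from limma. Haspin, with a log2 change of -4.02 to -3.65, Tesk1, with -2.51 to -2.19, and Tssk1, with -3.55 to -3.11, passed in all 13. Tesk2 was near the threshold without Fn replicate 1 (adjusted p = 0.049), as was Tssk4 without Wt replicate 3 (adjusted p = 0.041). The replicate block, which treats same-numbered arrays as pairs, gave the same 7 lower and 0 higher kinase probe sets. It changed the call of none of the 11 kinase probe sets or 39 measured pathway genes (Tesk2 adjusted p = 0.01, Tssk4 0.0013, Haspin 3.0e-07). For the ratios Tesk1 to Tesk2 (-1.83) and Tssk1 to Tssk2 (4.09) the exact paired permutation test gave p = 0.25, the smallest that 3 pairs allow. Of 73 cell type markers, 69 had the same call with the block, and Etv5, Lcn5, Prm1 and Spink8 did not.

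The difference in the Tssk1 to Tssk2 ratio turned to -0.38 with signals under the level set to it and was 1.32 with 16 added to each signal. In the list of TSSK partners, 6 genes were lower and 0 higher with arrays centred on their medians, and 0 were higher without the trend. In the TESK and LIMK list, 1 gene was lower after quantile normalization, without the trend, with array weights, with the mean of probe sets and on leaving out each array in turn. In the Haspin list, 2 genes were higher with centred arrays, without the trend and with the mean of probe sets, and 2 to 4 on leaving out 1 array. The cause of these shifts was not tested. Signals under the level limit Tssk2, Tssk3, Tssk4 and Tssk6 in Fn testes, where the sizes for Tssk2, Tssk3 and Tssk4 are bounds and Tssk6 has none.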
